A study of Mus musculus with 12 samples.

Results

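The amino acid and peptide transporters described here are 10 genes of the intestinal epithelium, chosen by name from the known carriers of dietary amino acids and small peptides, by a rule that uses no measured value, though with earlier results of these data known. They are Slc15a1, Slc6a19, Slc6a20a, Slc7a7, Slc7a8, Slc7a9, Slc3a1, Slc3a2, Slc1a1 and Slc36a1. All 10 were among the 44205 genes of the deposited table, and all 10 were among the 17662 genes that reached the level needed for testing, 0.5 RPKM in at least 3 libraries. RPKM is the number of reads on a gene scaled to its exon length and to the size of the library.

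RNA was sequenced from whole ileum, the last segment of the small intestine, of 12 C57BL/6 mice with no engineered allele, 3 mice in each of 4 diet groups. All mice were 16 weeks old and had spent 10 weeks on their diet, begun at 6 weeks of age. The groups were a normal fat diet with plain water (NF), the normal fat diet with a 23% (w/v) sugar drink (NF-Sugar), a high fat diet with 60% of the energy as fat and plain water (HF), and the high fat diet with the sugar drink (HF-Sugar, the Western diet of the study). Each library came from 1 mouse, and only RNA of an integrity number over 8 went into libraries.

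Dietary protein reaches the ileum as free amino acids and short peptides. Enterocytes, the absorptive cells of the epithelium, take them up through carriers in the brush border facing the lumen and pass amino acids to the blood through carriers in the basolateral membrane. Several carriers work only as pairs, in which a light chain moves the substrate and a heavy chain brings the light chain to the membrane. Loss of these carriers underlies inherited disorders of amino acid handling such as Hartnup disorder (Slc6a19), cystinuria (Slc3a1 and Slc7a9) and lysinuric protein intolerance (Slc7a7).

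None of the 10 transporter genes was called different between diets at an adjusted p under 0.05. The same held for nearly every gene tested, with at most 0.00566% of all genes called in any comparison. The lowest means in the mice given both fat and sugar, relative to plain-water mice, were those of the peptide carrier Slc15a1 and the neutral amino acid exchanger Slc7a8. For Slc15a1 the HF-Sugar mean was 31.8 ± 5.44 RPKM (SD, n = 3) against 56.4 ± 11.1 in NF. For Slc7a8 it was 12.8 ± 1.14 RPKM against 20.1 ± 2.40 in NF. The proline carrier Slc6a20a had its highest mean in HF, 48.5 ± 8.55 RPKM, and means of 32.5 to 33.7 in the other groups.

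The libraries held 15.3 to 39.0 M reads as recovered from the steps between low RPKM values, of which 73.3% to 81.4% fell in genes. Counts behind the member genes were well above the counting floor, from 520 reads for Slc36a1 to 28666 for Slc6a19 in a single library. On the first principal component of all genes, with 39.7% of the variance, 4 libraries stood apart from the other 8, namely NF replicate 2, NF-Sugar replicate 1, HF replicate 2 and HF-Sugar replicate 2. The ileum label was matched by markers such as the bile acid binding protein Fabp6 at 2415 to 9713 RPKM and the bile acid carrier Slc10a2 at 64.4 to 123. Fgf15, another of the 6 ileum markers, varied more, at 2.98 to 66.7 RPKM. Because whole tissue was sequenced, fewer enterocytes and less transporter RNA per enterocyte cannot be told apart in any of the values below.

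Before diets are compared, RNA levels are given for each carrier. Averaged over the 12 libraries, Slc6a19, the main brush border carrier of neutral amino acids, stood first with 113 RPKM (range 75.8 to 158). Slc3a1, the heavy chain of the cystine and basic amino acid exchanger, had 101 RPKM (75.0 to 119), and its light chain Slc7a9 had 82.0 (62.2 to 121). These 3 brush border genes held the first 3 ranks in every group, with Slc3a1 and Slc6a19 in exchanged order in HF-Sugar at 94.9 and 94.5 RPKM.

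A middle tier followed. Slc7a7, the basolateral light chain that exports basic amino acids, had 53.6 RPKM (40.2 to 63.3). Slc15a1, or PepT1, the proton-coupled carrier of small peptides, had 48.4 RPKM with the widest relative spread of the 10 genes, from 25.9 to 106. Slc3a2, the heavy chain shared by the basolateral exchangers and also known as CD98, had 45.6 RPKM (35.2 to 61.8). Slc6a20a, the brush border carrier of proline, had 36.8 RPKM (23.7 to 56.2).

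The lowest levels belonged to the acidic amino acid carrier Slc1a1 with 25.2 RPKM (18.4 to 34.9), the basolateral neutral exchanger Slc7a8 with 18.2 (9.18 to 32.0), and the proton-coupled carrier of small neutral amino acids Slc36a1 with 6.11 (3.83 to 8.59). Slc6a19 was above 97.0% of all genes tested and Slc36a1 above 64.3%, and the other 8 lay between them. Neighbours in the order were compared within libraries by a sign-flip permutation test on log2 ratios, adjusted over the 9 pairs. Differences passed for 6 of the 9 pairs. They did not pass for Slc6a19 with Slc3a1 (permutation test adjusted p = 0.0986), Slc7a7 with Slc15a1 (0.0994) and Slc15a1 with Slc3a2 (0.949), and in medians Slc3a2 came before Slc15a1. Without the 4 libraries that stood apart, 4 of the 9 pairs passed.

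**Figure D1:**
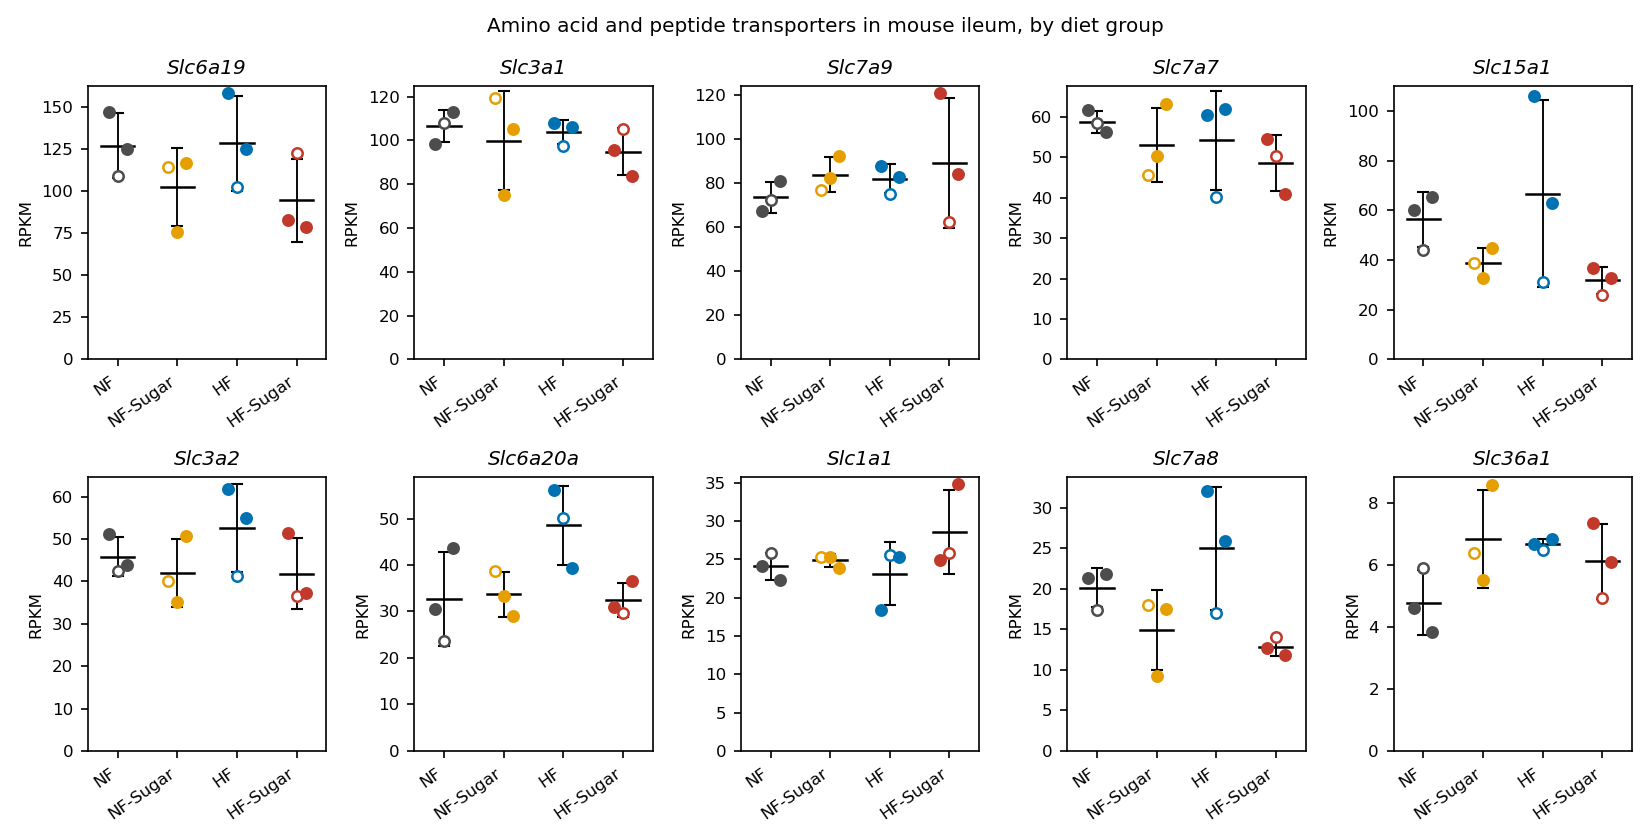
RPKM (vertical axis, from 0) of each of the 10 transporter genes in the 4 diet groups, in order of mean level. Points are single mice, open for the 4 libraries that stood apart, and bars are the mean ± SD (n = 3). Slc15a1 and Slc7a8 have their lowest means in HF-Sugar (31.8 and 12.8 RPKM), with all 3 HF-Sugar mice below all 3 NF mice, while Slc6a20a has its highest mean in HF (48.5 RPKM).

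The sugar drink was examined first, over both diets. The sugar main effect is the mean of the NF-Sugar against NF and HF-Sugar against HF differences, on the log2(RPKM + 1) scale and after scaling each library by a factor of 0.882 to 1.18. Of the 10 members 7 had lower and 3 had higher means with sugar, with a median log2 difference of -0.20 against -0.01 over all genes tested, of which 52% were lower. No member passed at an adjusted p of 0.05 (limma, lowest adjusted p 0.999), as did 0% of all 17662 genes. At an unadjusted p under 0.05 there were 2 members, both lower, where 3.37% of all genes were below that p in either direction and 1.93% were lower.

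Slc7a8 and Slc15a1 were those 2 members. Slc7a8, also called LAT2, had 21.3, 17.4 and 21.8 RPKM in NF, 17.9, 9.18 and 17.5 in NF-Sugar, 32.0, 17.0 and 25.9 in HF, and 12.7, 14.0 and 11.8 in HF-Sugar (replicates 1 to 3). All 3 HF-Sugar values lay below all plain-water values, and the NF-Sugar values overlapped with NF through replicates 1 and 3. The log2 difference with sugar was -0.67 ± 0.20 (SE; limma p = 0.0063, adjusted p = 0.999), and the two-sided exact permutation test within diets gave p = 0.01, where the smallest p it can give is 0.005. Over 24 alternative settings, leaving out single libraries included, this difference stayed between -0.95 and -0.38.

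Slc15a1 had 60.1, 43.9 and 65.2 RPKM in NF, 38.7, 32.8 and 44.7 in NF-Sugar, 106, 31.1 and 63.0 in HF, and 36.7, 25.9 and 32.7 in HF-Sugar. HF replicate 1 was the highest of all libraries, while HF replicate 2, one of the libraries that stood apart, was within the range of HF-Sugar. The log2 difference with sugar was -0.72 ± 0.25 (limma p = 0.0146, adjusted p = 0.999), and the exact permutation test gave p = 0.015. Among the 8 libraries that did not stand apart, the mean with sugar was 0.499 of the mean without, and the sugar and plain-water mice did not overlap. The gene spans chr14:121459621-121505252 on the minus strand of GRCm38, and Slc7a8 lies on the same chromosome at chr14:54722209-54781946. Neither has exons shared with another annotated gene.

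The other members had smaller differences with sugar. Slc6a19 was at 98.4 RPKM with sugar and 128 without, a log2 difference of -0.40 ± 0.20 (limma p = 0.0728, adjusted p = 0.999), and the exact permutation p was 0.08. Slc6a20a was at -0.25 and Slc3a2 at -0.24 on the log2 scale, with 95% intervals of -0.56 to 0.06 and -0.59 to 0.11. Slc7a7 was at -0.16 and Slc3a1 at -0.14. The members with higher means with sugar were Slc1a1 at 0.16, Slc36a1 at 0.15 and Slc7a9 at 0.12, and each of their intervals included 0. All 3 basolateral members (Slc7a7, Slc7a8 and Slc3a2) had lower means with sugar, and of the 7 brush border members 4 had lower means.

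HF-Sugar against NF is the study's Western diet comparison. Here 7 of 10 members were lower (50.3% of all genes), with a median log2 difference of -0.20 against 0.00 over all genes, and 0 were called (0% of all genes). The groups did not overlap for 3 members, Slc15a1, Slc7a8 and Slc7a7, all lower in HF-Sugar, beside 10.2% of all genes with no overlap in either direction and 2.97% with no overlap and lower. Overlap was read from RPKM as deposited, and in scaled RPKM Slc15a1 and Slc7a8 did not overlap (10.4% of all genes) while Slc7a7 did. Slc15a1 differed by -0.85 ± 0.35 (limma p = 0.0349, adjusted p = 0.999; exact permutation p = 0.1). Slc7a8 differed by -0.65 ± 0.28 (limma p = 0.0422, adjusted p = 0.999; exact permutation p = 0.1). An exact p of 0.1 is the smallest that 3 against 3 mice allow. At an unadjusted p under 0.05 stood these 2 members, beside 4.07% of all genes in either direction and 1.7% lower. That count was 0 when NF replicate 1, NF replicate 3 or HF-Sugar replicate 3 was left out.

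Slc7a7, the light chain y+LAT1, showed how close such a separation can be. Its values were 61.6, 58.4 and 56.3 RPKM in NF and 54.4, 50.2 and 40.9 in HF-Sugar, so that the nearest mice of the groups were only slightly apart. The log2 difference was -0.32 ± 0.22 (limma p = 0.173, adjusted p = 0.999; exact permutation p = 0.3), and -0.15 without HF-Sugar replicate 3. Of the exon bases of Slc7a7 7% are shared with Oxa1l on the opposite strand, and whether the counting used strand is not given in the sources used here. For the remaining members the 95% intervals of the log2 difference all included 0, from -1.11 to 0.14 for Slc6a19 to -0.22 to 0.74 for Slc36a1.

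Adding sugar to the high fat diet gave the largest differences of Slc15a1 and Slc7a8 among the pairs of groups. In HF-Sugar against HF, 8 of 10 members were lower (50.9% of all genes), the median was -0.24, and 0 members were called, as was 0.00566% of all genes. At an unadjusted p under 0.05 there were 3 members, all lower, beside 4.24% of all genes in either direction and 2.36% lower. Slc7a8 had 12.8 ± 1.14 RPKM in HF-Sugar and 25.0 ± 7.57 in HF, a log2 difference of -0.87 ± 0.28 (limma p = 0.0103, adjusted p = 1; exact permutation p = 0.1), with no overlap. Slc15a1 differed by -0.90 ± 0.35 (limma p = 0.026, adjusted p = 1; exact permutation p = 0.2), and the groups overlapped through HF replicate 2. Without HF replicate 1, the library with 106 RPKM, the Slc15a1 difference was -0.48 and no longer under an unadjusted p of 0.05.

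Slc6a20a was the third of these members. This brush border carrier of proline and other imino acids, SIT1, had 30.5, 23.7 and 43.7 RPKM in NF, 38.7, 33.3 and 29.0 in NF-Sugar, 56.2, 50.1 and 39.3 in HF, and 31.1, 29.7 and 36.7 in HF-Sugar. All 3 HF mice lay above all HF-Sugar mice, and HF overlapped with NF through NF replicate 3. The log2 difference of HF-Sugar against HF was -0.57 ± 0.20 (limma p = 0.0152, adjusted p = 1; exact permutation p = 0.1). Groups that did not overlap were seen for 2 members, Slc6a20a and Slc7a8, both lower in HF-Sugar, beside 9.83% of all genes in either direction and 5.15% lower. In scaled RPKM the same 2 members did not overlap, beside 9.76% of all genes.

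In HF against NF, the high fat diet alone, 6 members were higher and 4 lower (49% of all genes lower), with a median of 0.09. None was called, as for 0% of all genes. Slc6a20a was the 1 member under an unadjusted p of 0.05 (3.47% of all genes, 2.19% higher), with a log2 difference of 0.55 ± 0.20 (limma p = 0.0169, adjusted p = 1; exact permutation p = 0.1). Without the 4 libraries that stood apart this difference was 0.38 and above an unadjusted p of 0.05. In scaled RPKM the HF and NF mice did not overlap for this gene (8.09% of all genes). The test of the difference between the fat effects with and without sugar, the interaction, gave -0.63 ± 0.28 for Slc6a20a (limma adjusted p = 1). It was the only member with an unadjusted p under 0.05, beside 2.37% of all genes in either direction and 1.08% below 0, and without those libraries its value was -0.29 and above that p. The interaction was called for 0 members and 0% of all genes. Its median over the members was -0.15, with 8 of 10 below 0 (50% of all genes).

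Reads of Slc6a20a can be shared with other genes. Its near-identical neighbour in the family, Slc6a20b, had 2.09 RPKM in NF, 2.59 in NF-Sugar, 4.27 in HF and 2.45 in HF-Sugar, and its log2 values followed those of Slc6a20a with r = 0.95 over the 12 libraries. How reads that match both genes were assigned is not given, so the 2 profiles are not independent. Slc6a20a, at chr9:123634770-123678885, also shares 13.8% of its exon bases with an antisense gene, Gm17120.

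Slc36a1, the lysosomal and brush border carrier PAT1, was the only member whose HF and NF mice did not overlap in RPKM as deposited, beside 8.35% of all genes, 5.37% higher. Its values were 4.62, 5.92 and 3.83 RPKM in NF and 6.69, 6.49 and 6.85 in HF. The HF mice were close to each other, and the NF mice were all lower. In scaled RPKM the groups overlapped through NF replicate 2. The log2 difference was 0.39 ± 0.21 (limma p = 0.0993, adjusted p = 1; exact permutation p = 0.4), and it was 0.15 without NF replicate 3. In NF-Sugar Slc36a1 had 6.40, 5.54 and 8.59 RPKM, and in HF-Sugar 7.36, 4.94 and 6.10.

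The remaining comparisons held no member below an unadjusted p of 0.05. In NF-Sugar against NF, 0 members were called (0% of all genes), 0 members did not overlap in deposited RPKM (5.86% of all genes) and 1, Slc15a1, in scaled RPKM (5.68%), and 1.58% of all genes had an unadjusted p under 0.05. The interval for Slc15a1 there, -1.31 to 0.24, still held the difference seen on the high fat diet. In HF-Sugar against NF-Sugar, 0 members were called (0.00566% of all genes), 0 did not overlap in deposited (5.93%) or scaled RPKM (5.77%), and 1.63% of all genes had an unadjusted p under 0.05. For the fat main effect, over both drinks, the median was 0.02, with log2 differences from -0.16 for Slc7a7 to 0.24 for Slc6a20a, 0 members called (0% of all genes) and 0 below an unadjusted p of 0.05 (2.6% of all genes). These comparisons share groups, so their values are not independent of each other.

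**Figure D2:**
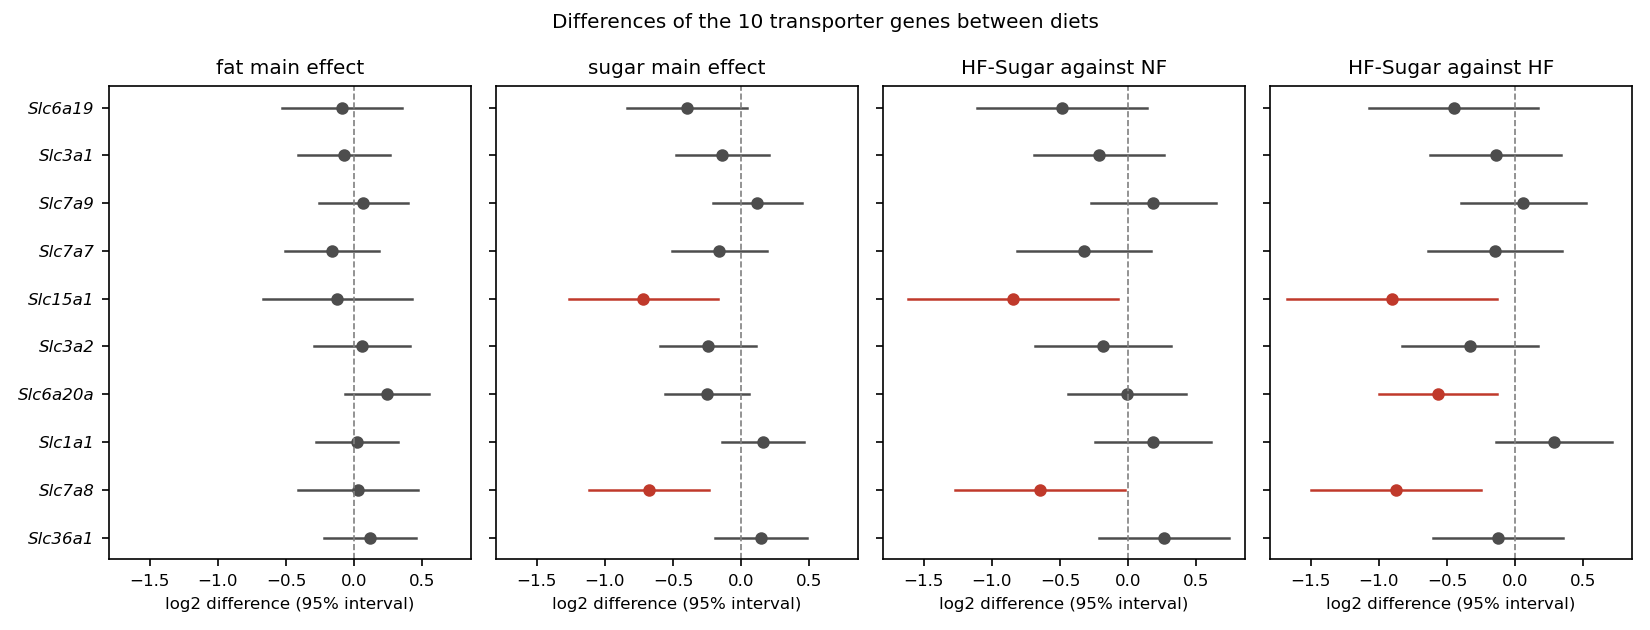
Log2 difference of log2(RPKM + 1) (horizontal axis) for the 10 transporter genes in 4 comparisons. Points are limma estimates, lines their 95% intervals, and red marks an unadjusted p under 0.05. Slc15a1 and Slc7a8 lie below 0 in the sugar main effect (-0.72 and -0.67), and no interval of the fat main effect leaves out 0.

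The members also differed in how much they varied over all mice, diets included. Slc3a1 varied by 12.1% (coefficient of variation over 12 libraries), Slc1a1 by 14.8% and Slc7a7 by 15.2%, against 46.3% for Slc15a1 and 34.9% for Slc7a8. For Slc1a1, the group means were 24.1 RPKM in NF, 24.9 in NF-Sugar, 23.1 in HF and 28.5 in HF-Sugar. Slc1a1 shares 31.9% of its exon bases with 4430402I18Rik on the opposite strand, and Slc3a1 shares 26.5% with Prepl, so that part of their reads may belong to these genes. Slc7a9, with no shared exons, had 73.4, 83.8, 81.9 and 89.0 RPKM in the same group order, and its widest spread was within HF-Sugar, at 121, 62.2 and 84.1.

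Heavy and light chains meet as partners at the membrane, so the ratio of their RNA levels was examined. The ratio of Slc3a1 to Slc7a9 was 1.47, 1.50 and 1.39 in NF, 1.55, 0.912 and 1.14 in NF-Sugar, 1.23, 1.30 and 1.28 in HF, and 0.792, 1.69 and 0.995 in HF-Sugar. The plain-water mice lay close together and the sugar mice were spread to both sides of them. The difference with sugar was -0.26 on the log2 scale (exact permutation p = 0.225, adjusted over 6 ratio tests 0.45), and it was -0.49 without the 4 libraries that stood apart. Without HF-Sugar replicate 2 it was -0.41 (adjusted exact p = 0.04). Over the 13 alternatives that left libraries out, this adjusted exact p ranged from 0.04 to 0.7125.

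The ratio of Slc3a2 to Slc7a8 was 2.40, 2.45 and 2.01 in NF, 2.23, 3.83 and 2.89 in NF-Sugar, 1.93, 2.43 and 2.12 in HF, and 4.06, 2.61 and 3.17 in HF-Sugar. All HF-Sugar ratios were above all plain-water ratios, and the lowest NF-Sugar ratio was within their range. The difference with sugar was 0.47 on the log2 scale (exact permutation p = 0.025, adjusted 0.12), and 0.71 without the libraries that stood apart. It passed at an adjusted exact p of 0.03 without NF-Sugar replicate 1 and of 0.04 without HF-Sugar replicate 2. Over the 13 alternatives that left libraries out, this adjusted exact p went up to 0.27. The ratio of Slc3a2 to Slc7a7 was 0.915 with high fat and 0.783 with normal fat, a log2 difference of 0.22 (exact permutation p = 0.04, adjusted 0.12). This difference passed at an adjusted exact p of 0.04 without HF-Sugar replicate 2, and over its 13 alternatives that p went up to 0.3. None of the 6 ratio tests passed with all libraries.

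**Figure D3:**
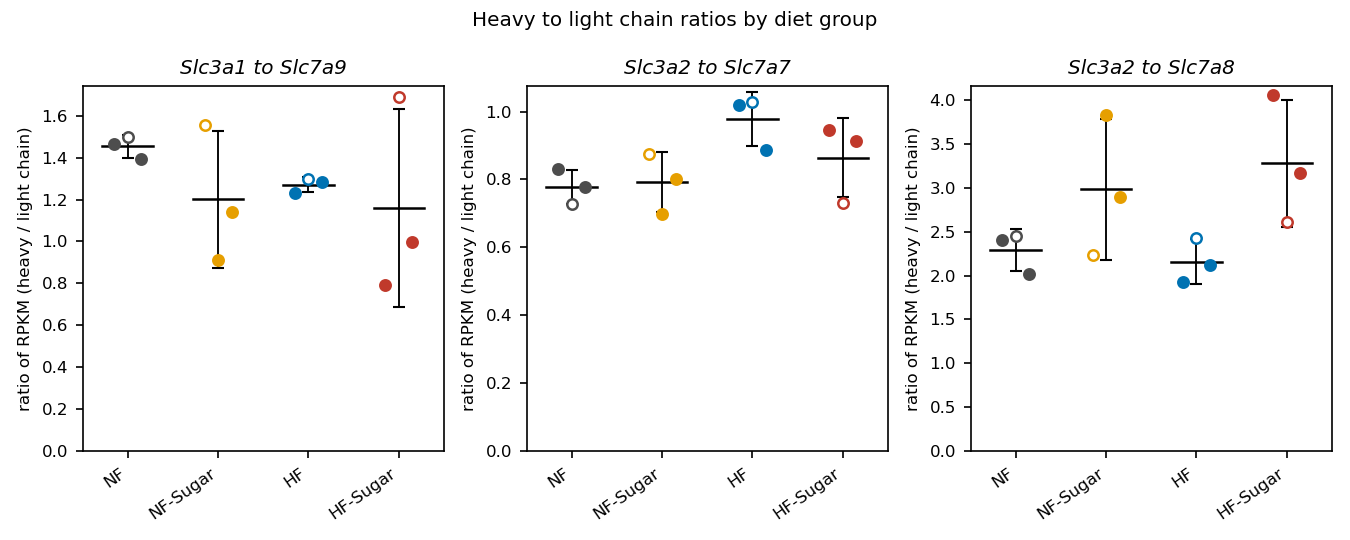
Ratio of heavy to light chain RPKM (vertical axis, from 0) for 3 partner pairs in the 4 diet groups. Points are single mice, open for the 4 libraries that stood apart, and bars are the mean ± SD (n = 3). Slc3a2 to Slc7a8 reaches 4.06 in HF-Sugar and stays at or below 2.45 in the plain-water groups.

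Partner genes were also compared across mice, in the 8 libraries that did not stand apart. Of 4 pairs computed, over which p-values were adjusted, 3 are reported. Slc3a2 and Slc7a7 had r = 0.85 (rho = 0.74; permutation p = 0.0077 and 0.0458, adjusted 0.0155 and 0.0611), and r was 0.80 without the 2 farthest libraries. Slc3a2 and Slc7a8 had r = 0.80 (rho = 0.86; permutation p = 0.0269 and 0.0107, adjusted 0.0359 and 0.0429), and r was 0.50 without the 2 libraries farthest in Slc3a2, so this relation rests in part on those libraries. Slc3a1 and Slc7a9 had r = 0.09 (rho = -0.05; permutation p = 0.975 and 0.935, adjusted the same), and -0.34 without the 2 farthest. On residuals after the diet group means this pair had r = 0.73. Slc3a2 had 0.97 with Slc7a7 and 0.82 with Slc7a8 on such residuals. With 2 of the 8 libraries in each group, the residuals of a group mirror each other, so no p-value is given for them. Without HF-Sugar replicate 3, the adjusted p for r was 0.0754 for Slc3a2 with Slc7a7. For Slc3a2 with Slc7a8 it was 0.0587 without NF replicate 1, 0.104 without NF-Sugar replicate 2, 0.0778 without NF-Sugar replicate 3, 0.1 without HF replicate 1 or HF-Sugar replicate 3, and 0.0582 without HF replicate 3, so that any of these libraries ended the call.

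Among the 45 pairs of members, described over all 12 libraries with no test, the closest were Slc6a19 with Slc7a8 (r = 0.88) and Slc15a1 with Slc7a8 (0.85). Neither is a pair of partners. The partner pairs Slc3a2 with Slc7a8 (0.78) and Slc3a2 with Slc7a7 (0.76) were about as close as Slc15a1 with Slc3a2 (0.76), so closeness was not particular to partners. The most opposed were Slc15a1 with Slc1a1 (-0.65). The tested genes most like each member in their log2 values were Tm4sf5 (r = 0.95), Cyp2b10 (0.95) and Snx6 (0.94) for Slc15a1, and Ano6 (0.97), Smim24 (0.96) and Myo1a (0.94), a motor protein of the brush border, for Slc7a8. For Slc6a19 they were Creb3l3 (0.94), Slc7a15 (0.93) and Smim24 (0.92). Smim24 thus stood beside both Slc6a19 and Slc7a8. Slc6a20a was most like Slc6a20b (0.95), Podn (0.92) and Hexdc (0.92), Slc3a2 like Sgpl1 (0.92), Prdx5 (0.92) and Kalrn (0.91), and Slc7a7 like Inpp5a (0.93), Wdr1 (0.91) and Got1 (0.90). Slc7a9 was most like Hist3h2a (0.94), Ighv1-81 (0.91) and Smpdl3b (0.88), and Slc3a1 like Tesk2 (0.93), Pcyt1a (0.93) and Slc25a22 (0.91). Slc1a1 was most like Socs6 (0.94), Tmem216 (0.91) and Ccser1 (0.91), and Slc36a1 like Osgin1 (0.85), Mavs (0.85) and Zcchc10 (0.85). These are the highest of 17662 genes, and all points share the same libraries.

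Markers of the absorptive epithelium had lower means with sugar too, by unlike amounts. All 12 enterocyte markers had lower means with sugar, beside 52% of all genes, with a median of -0.31, and 0 were called. At an unadjusted p under 0.05 were 3 of the 12, all lower, beside 3.37% of all genes in either direction and 1.93% lower. Myo1a had a log2 difference of -0.33, the lipoprotein Apoa1 -0.61 and the brush border phosphatase Alpi -0.49. Vil1 had means of 510, 459, 520 and 479 RPKM in NF, NF-Sugar, HF and HF-Sugar, and Cdh17 164, 143, 148 and 156. Fabp1 ranged from 4.60 to 281 RPKM over single libraries, so the mean of the list also follows its most variable markers. Whether that mean follows enterocyte content or sampled position was not tested. Summed RPKM of the list ranged from 10350 to 13995 in NF, 6364 to 12370 in NF-Sugar, 10406 to 20845 in HF and 7647 to 9549 in HF-Sugar, and none of its markers was at 0. With the mean of these markers as a covariate, the sugar difference of Slc15a1 was -0.36, above an unadjusted p of 0.05, and that of Slc7a8 was -0.38, under it. In HF-Sugar against NF the same covariate gave -0.46 for Slc15a1 and -0.34 for Slc7a8, both above that p. In HF-Sugar against HF it gave -0.40 for Slc15a1, above, and -0.47 for Slc7a8, under it.

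Genes of the upper small intestine varied still more. Lct, the lactase of the jejunal brush border, had 57.8, 0.700 and 22.8 RPKM in HF, 5.30, 8.56 and 4.87 in NF, 7.74, 0.0773 and 18.3 in NF-Sugar, and 5.27, 1.63 and 0.719 in HF-Sugar. The mouse highest in Lct, HF replicate 1, was also highest in deposited RPKM of Slc15a1, Slc7a8, Slc6a19, Slc6a20a and Slc3a2. NF-Sugar replicate 2, the lowest in Lct, was lowest in deposited RPKM of Slc7a8, Slc6a19, Slc3a1 and Slc3a2. In scaled RPKM NF replicate 1 was highest in Slc6a19, and HF-Sugar replicate 3 was lowest in Slc6a19 and Slc3a2. Of the 5 proximal markers 3 were tested, all lower with sugar (median -0.60, 0 called, 0 below an unadjusted p of 0.05), while Onecut2 and Pdx1 were near 0. The summed proximal RPKM ranged from 8.70 to 12.1 in NF, 0.604 to 22.0 in NF-Sugar, 2.11 to 65.0 in HF and 1.84 to 8.14 in HF-Sugar. All 6 ileum markers were lower in HF than in NF (median -0.28), and 5 were higher in HF-Sugar than in HF (0.32). In the sugar main effect 3 of them were higher and 3 lower, and 0 were called. The part of enterocyte content and of the sampled position along the intestine in the member differences was not tested beyond the covariate.

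**Figure D4:**
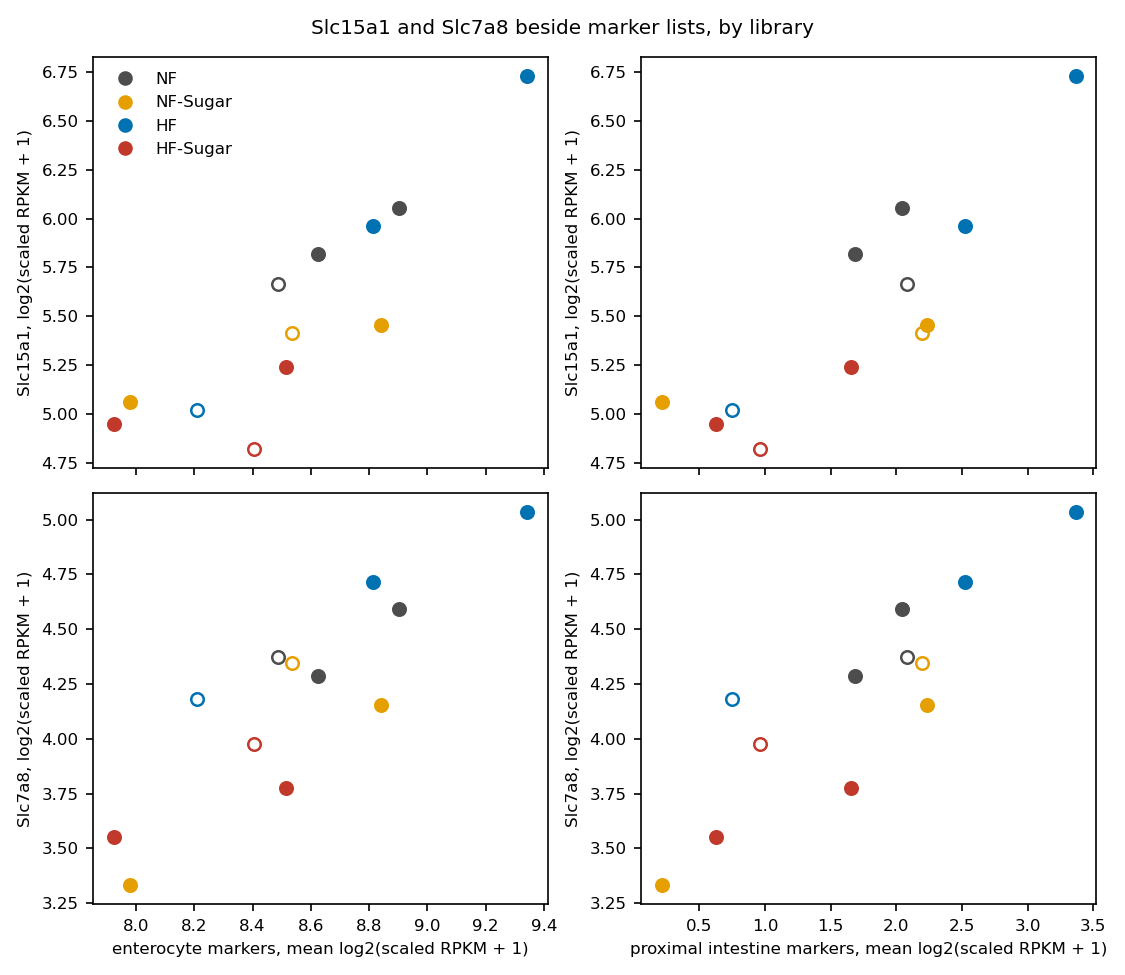
Log2(scaled RPKM + 1) of Slc15a1 (upper panels) and Slc7a8 (lower panels) against the mean log2 level of the 12 enterocyte markers (left) and of the 3 proximal intestine markers tested (right), 1 point per mouse, open for the libraries that stood apart. HF replicate 1 is the highest point in all 4 panels. At the lower end of both marker axes and of the Slc15a1 axis lie mice of the HF, NF-Sugar and HF-Sugar groups. On the Slc7a8 axis the lowest points are NF-Sugar replicate 2 (3.33) and HF-Sugar replicate 3 (3.55), and the lowest HF mouse is at 4.18.

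Markers of other cell types were examined in the same way. Of 8 lymphocyte markers 6 were higher in HF-Sugar than in NF (median 0.34), and 0 were called. At an unadjusted p under 0.05 were 4 of the 8, all higher, among them Cd8a at 0.51 and Ptprc at 0.40, beside 4.07% of all genes in either direction. The 2 lower markers were Cd3e, at 0.873 RPKM in HF-Sugar against 1.06 in NF, and Cd3g, at 1.31 against 1.58. Summed RPKM of the 8 markers ranged from 21.4 to 26.6 in NF and 24.5 to 36.9 in HF-Sugar. In that comparison 6 of 6 smooth muscle markers were lower (median -0.28), 5 of 5 macrophage and dendritic cell markers higher (0.19) and 7 of 7 crypt and proliferation markers higher (0.20), with 0 called. In the sugar main effect 6 of 8 lymphocyte (median 0.08), 5 of 6 smooth muscle (0.15), 4 of 5 macrophage and dendritic cell (0.08) and 6 of 7 crypt and proliferation markers (0.13) were higher, again with 0 called. Of 6 exocrine pancreas markers only Cela1 reached the testing level, at 1.38 to 4.55 RPKM with the highest value in HF replicate 1. Ctrb1 was at 8.48 RPKM in HF replicate 2, 1.26 in HF-Sugar replicate 1 and at most 0.381 in the other libraries, and the adipocyte gene Adipoq ranged from 0 to 11.3. Their part in the member differences was not tested.

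The wider family gives the setting of these 10 genes. A list of 36 other amino acid and peptide carriers had 24 members at the testing level, and 0 were called in any comparison. With sugar 16 were higher and 8 lower, with a median of 0.07, 0 of them below an unadjusted p of 0.05. In HF-Sugar against NF 18 were higher and 6 lower (median 0.12). There Slc38a2, a sodium-coupled importer of small neutral amino acids, had 14.5 RPKM against 10.1, a log2 difference of 0.44 ± 0.19, and Slc15a4, an endolysosomal carrier of histidine and peptides, 2.15 against 1.55, a difference of 0.27 ± 0.12. For the fat main effect Slc6a20b was at 0.35 ± 0.13 and Pqlc2, a lysosomal exporter of basic amino acids, at 0.21 ± 0.08. Each of these 4 genes was under an unadjusted p of 0.05 and had an adjusted p of at least 0.999 (limma). Of all genes 4.07% were under that unadjusted p in HF-Sugar against NF and 2.6% for the fat main effect.

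Proteins that assist the brush border carriers had lower means with sugar in 3 of 4 cases tested, and 0 were called. Pdzk1, a scaffold that holds transporters at the brush border, had a log2 difference with sugar of -0.47 ± 0.22 (limma adjusted p = 0.999), above an unadjusted p of 0.05. Slc9a3, the sodium and proton exchanger that maintains the proton gradient used by Slc15a1, had 3.91 to 5.78 RPKM in the group means. Tmem27, a partner of amino acid carriers in the kidney, was near 0, at 0.0321 to 0.358 RPKM.

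Cells short of amino acids raise a set of genes through the factor Atf4, and 11 of 12 such genes were tested. With sugar 6 were higher and 5 lower, and 0 were called. The highest were Asns, the asparagine synthetase, at 0.62 ± 0.23, Psat1 at 0.58 ± 0.20 and Phgdh at 0.41 ± 0.17, the latter pair being enzymes of serine synthesis. All 3 were under an unadjusted p of 0.05, beside 3.37% of all genes in either direction, with an adjusted p of 0.999 (limma). Asns had 5.99, 5.77 and 4.42 RPKM in NF, 4.77, 11.8 and 11.4 in NF-Sugar, 4.16, 3.84 and 6.11 in HF, and 7.22, 10.7 and 6.15 in HF-Sugar. In deposited RPKM only NF-Sugar replicate 1 was inside the plain-water range, and HF-Sugar replicate 3 was just above its top, HF replicate 3. In scaled RPKM HF-Sugar replicate 3 (scale factor 1.10) was inside that range too, below NF replicate 1 (0.918). Trib3, another Atf4 target, was at -0.39, so the list did not move in 1 direction.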

How the data were processed

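Libraries were made from RNA of single mouse ilea with an Ion Total RNA-Seq kit, per the paper's methods after mRNA selection and rRNA depletion. The submitters' processing notes name Partek and build mm10, and per the paper's methods reads were mapped with STAR. The authors deposited normalized values per gene and library. Low values became whole reads when multiplied by exon length (87.5% to 89.1% within 0.03 reads), so the deposited values were read as RPKM. Strand use and the handling of multi-mapped reads are not given in the sources used here.

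Of 44231 rows, 26 that carried only a number as name (up to 0.135% of any library) were dropped, and 40607 symbols were matched to a GRCm38 annotation. Of all values 17 carried over 6 digits, none of them among the 120 member values. RPKM were scaled by trimmed means of M values (30% and 5% trimmed). Log2(RPKM + 1) of the 17662 genes was fitted with limma 3.58.1 (R 4.3.3, trend on, 4 groups in 1 fit, 8 residual degrees of freedom), adjusted by Benjamini-Hochberg over all genes in each of 8 contrasts. Of 80 member tests 9 were under an unadjusted p of 0.05. Tested on simulated data for the sugar main effect (16710 genes), the fit recovered 73.6% of changes of log2 1, 89.9% of changes of log2 2, and called 7 unchanged genes. The simulated noise was independent between genes, with no libraries that stood apart, and many changes were planted at once. These shares therefore do not tell how often a real member change of that size would be called. Permutation tests were run in Python 3.11.15 (numpy 2.4.6, pandas 2.3.3, scipy 1.17.1) and figures drawn with matplotlib 3.10.9.

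All members were named, with full statistics where the unadjusted p was under 0.05 or deposited RPKM did not overlap, and with their 3 most alike genes, passing over predicted genes. Of the other lists (15 with the members and their parts) up to 4 genes of smallest p were eligible. Fabp6, Slc10a2, Tmem27, Onecut2, Pdx1, Cela1, Ctrb1, Adipoq, Cd3e, Cd3g, Vil1, Cdh17 and Fabp1 were named after their values were seen. The members and lists were chosen with earlier results of these data known. Libraries of the same replicate number deviated together (every pair above 0.1) for HF-Sugar with NF (0.19, 0.51 and 0.23) and with HF (0.49, 0.56 and 0.13) only, so a replicate block was an alternative. Further alternatives changed the scaling, filter or pseudocount, kept protein-coding genes or the 2 compared groups, added covariates, used limma-voom on recovered reads or a stricter threshold (2-fold, adjusted p 0.01), or left libraries out. One partner correlation and 1 gene of the accessory protein list are not reported here.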

Additional observations from a re-analysis of the deposited data

How the results depend on the processing

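Of 512 alternative values of results that answer a comparison, 492 were taken as kept. Counts had a loose rule, under which 4 neighbour pairs passing in the level order were taken as kept against 6. Tested values had to keep their direction and side of the threshold, and values with no test had to move by less than 1 SD between mice. That SD was 0.185, and the members' medians lay between -0.24 and 0.09, so a median could fall near 0 and count as kept. With enterocyte markers as a covariate, the median in HF-Sugar against NF went from -0.20 to -0.048 in that way. The counts of members called were also among the 512. The count of members called was 0 in all 8 contrasts under every one of 26 settings that could be fitted to it. In the main fit at most 0.00566% of all genes were called in any contrast. The 11 named member differences kept their sign in all 278 alternatives. Slc15a1 in HF-Sugar against HF ranged from -1.35 to -0.48 when single libraries were left out, and Slc36a1 in HF against NF from 0.15 to 0.58.

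With enterocyte markers as a covariate the members' median in HF-Sugar against HF was -0.035, and their median for the interaction ranged from -0.36 to -0.0078 when single libraries were left out, the lowest being without HF-Sugar replicate 1. The correlation of Slc3a1 with Slc7a9 was 0.73 on residuals after the diet group means, and ranged from -0.031 to 0.23 with single libraries left out. The cause was not tested. The ratio of Slc3a2 to Slc7a8 for fat was -0.0071 without the libraries that stood apart, and ranged from -0.065 to 0.13 with single libraries left out. In the same way the log2 ratio for sugar ranged from 0.37 to 0.57, Slc3a1 to Slc7a9 for sugar from -0.41 to -0.14, and Slc3a2 to Slc7a7 for fat from 0.18 to 0.28. Correlations ranged from 0.84 to 0.89 for Slc3a2 with Slc7a7 and 0.71 to 0.90 for Slc3a2 with Slc7a8.

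With the replicate block the members' median was -0.20 in HF-Sugar against NF and -0.24 in HF-Sugar against HF, and the block changed no call of a member. Leaving out HF-Sugar replicate 3, NF replicate 1, NF-Sugar replicates 2 or 3, or HF replicates 1 or 3 took Slc3a2 with Slc7a8 above an adjusted p of 0.05.

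With 3 mice a group, the SEs were 0.19 to 0.35 in pairs of groups, and every member had at least 520 reads in every library; which of mouse number and depth limits the calls more was not tested. Counts were not among the values used, and reads recovered from RPKM, fitted with limma-voom, called 0 members. Exon overlap and near-identical copies bear on Slc6a20a, Slc3a1, Slc1a1 and Slc7a7, and tissue makeup on all members.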
